A study of Mus musculus with 23 samples.

Results

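The 10 genes described here encode the scaffold of elastic fibres and the store of latent TGF-beta that is tied to it. They are Fbn1, Eln and Fbln5, the latent TGF-beta binding protein genes Ltbp1, Ltbp2, Ltbp3 and Ltbp4, and the ligand genes Tgfb1, Tgfb2 and Tgfb3. They were taken by name and gene ID from the 49315 genes of the deposited count table. All 10 were among the 15500 genes with enough counts to be tested. RNA was from left ventricles of FVB mice, an inbred strain, and 23 libraries fell into 6 groups. Mice were in filtered air (air), in aerosol of the e-cigarette vehicle (vehicle) or in aerosol of the vehicle with nicotine (nicotine), 4 hours a day and 5 days a week for 3 months. Exposure began at an age of 3 weeks in the 3-week groups and 3 months in the 3-month groups, with 4 libraries in each group but the 3-week vehicle group, which had 3. Because every exposure lasted equally long, age at the start and age at the end cannot be told apart. Nothing in the labels says that the libraries came from separate animals, so the p-values rest on sample-to-sample spread that could be technical. The labels give no batch and no sex.

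Elastic fibres consist of a core of cross-linked elastin, the product of Eln, laid on microfibrils built mainly from fibrillin-1, the product of Fbn1. Fibulin-5, from Fbln5, helps to bring elastin to the microfibrils. TGF-beta is secreted in a latent complex with its own propeptide, which most cells attach to a latent TGF-beta binding protein and so to the matrix, where proteases, integrins or thrombospondin can release it. In the heart these proteins are made mostly by fibroblasts, vascular smooth muscle and endothelium, and TGF-beta is a known driver of cardiac fibrosis.

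Libraries held between 12297955 and 17821550 counts. Markers of ventricular cardiomyocytes summed to between 77752 and 97220 CPM (counts scaled to library size) with none at 0, while 4 lung epithelial markers summed to at most 0.748 CPM. Libraries differed in how their levels followed exonic length. The Spearman correlation between exonic length and a library's deviation from the mean log2 CPM of each gene ran from -0.35 in 3-week nicotine library 2 to 0.32 in 3-month nicotine library 3. It was below 0 in all 4 3-month vehicle libraries (-0.25 to -0.11) and above 0 in all 4 3-month air libraries (0.09 to 0.30). Within the 3-week start it separated vehicle libraries 1 and 2 (-0.21 and -0.28) from library 4 (0.18), and nicotine libraries 2 and 5 (-0.35 and -0.30) from libraries 3 and 6 (0.10 and 0.20). Libraries of 3-week air also stood apart from each other: Thbs1, which encodes the latent TGF-beta activator thrombospondin-1, stood at 742 and 690 CPM in 3-week air libraries 1 and 5 and at 11.9 and 6.94 CPM in libraries 2 and 4 of the same group. In bulk tissue such as this, fewer cells of a type and less RNA per cell cannot be told apart.

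Scaled to exonic length as CPM per 1000 exonic bases (RPKM), Ltbp4 stood far above the other 9 genes, at 95.3 ± 9.90 (SD, n = 23). Tgfb1 followed at 8.73 ± 1.40 RPKM, Ltbp3 at 7.05 ± 0.828, Tgfb3 at 6.29 ± 0.961 and Eln at 5.99 ± 1.62. Ltbp1 was at 5.59 ± 1.07 RPKM, Fbn1 at 4.41 ± 1.18, Tgfb2 at 3.53 ± 0.577 and Fbln5 at 3.28 ± 0.533, with Ltbp2 last at 0.756 ± 0.413. The lowest Ltbp4 library (78.8 RPKM) lay above the highest Tgfb1 library (11.3 RPKM). From Ltbp3 down to Fbln5, each gene differed from the next in this order by less than the larger of their SDs across libraries.

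**Figure D1:**
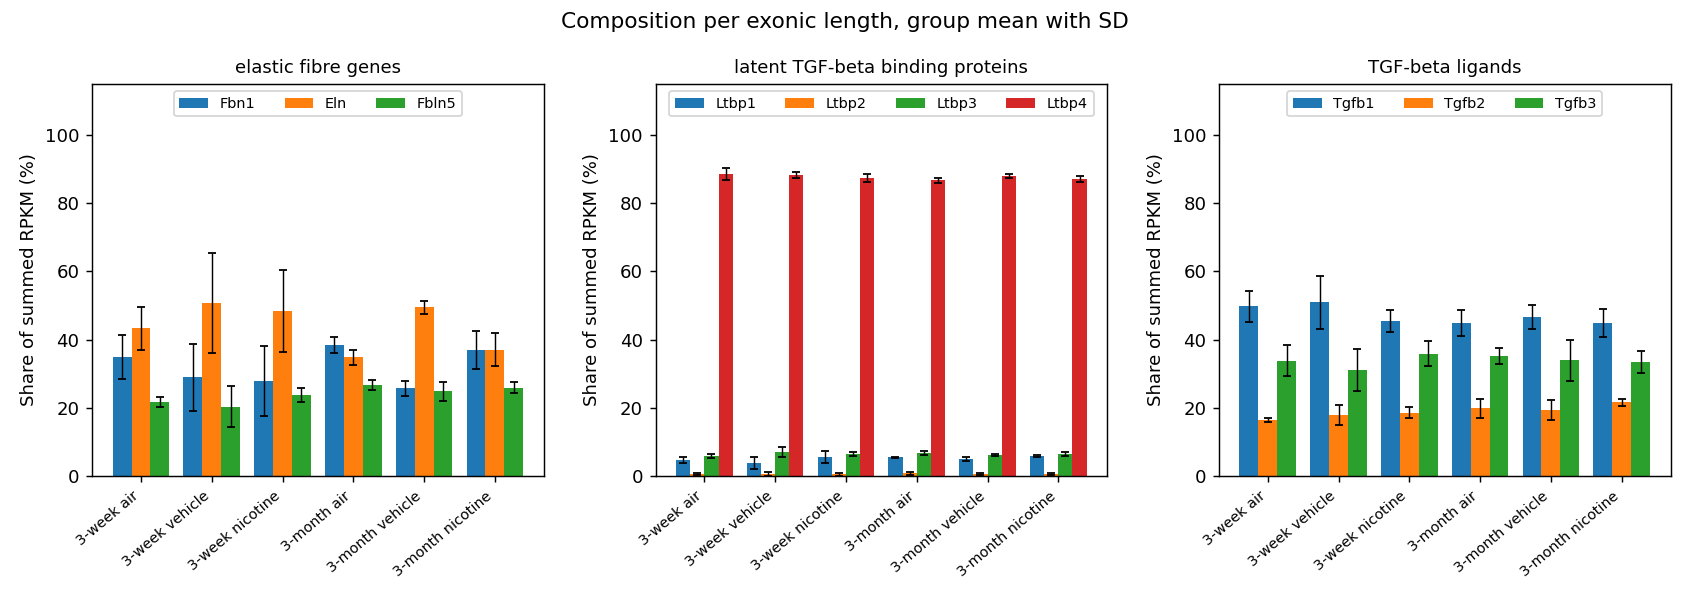
Share of each gene in the summed RPKM of its set (vertical axis, percent) by group (horizontal axis), with bars for group means and error bars for the SD over 3 or 4 libraries. Ltbp4 made up 86.6 to 88.6% of the binding protein transcripts in every group, and the Eln share stood at 49.5% in 3-month vehicle against 34.8% in 3-month air.

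Ltbp4 made up between 86.6% (3-month air) and 88.6% (3-week air) of the length-scaled transcript of the 4 binding protein genes. Among the ligands, Tgfb1 held 44.9 to 50.9% by group, Tgfb3 31.1 to 35.9% and Tgfb2 16.5 to 21.6%. The Tgfb1 and Tgfb3 shares overlapped between all groups. The Tgfb2 share ran from 16.5 ± 0.491% in 3-week air to 21.6 ± 0.929% in 3-month nicotine (SD, n = 4 each), and these groups did not overlap. They are the lowest and highest of the 6 group means and differ in both exposure and starting age. The narrow range of 3-week air (15.8 to 16.8%) also lay below 3-month air (17.4 to 23.7%) and 3-week nicotine (17.1 to 20.9%). It overlapped the vehicle groups. The 3 elastic fibre genes were less evenly kept. In 3-month air, Fbn1 held 38.5 ± 2.3% and Eln 34.8 ± 2.3% of their sum with Fbln5 (SD, n = 4). In 3-month vehicle the order was turned, with Fbn1 at 25.7 ± 2.1% and Eln at 49.5 ± 1.8%, and 3-month nicotine lay near air with 37.0 ± 5.6% and 37.1 ± 4.8%.

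Fbn1 had the largest log2 fold change of the 10 genes in the 6 exposure comparisons, and its mean was lower with vehicle at both starting ages, but in neither did it pass the test that was applied to every gene. In the 3-month start it stood at 72.1, 61.9, 68.8 and 61.7 CPM in air, at 35.7, 36.0, 44.3 and 41.7 CPM in vehicle and at 52.7, 66.7, 77.0 and 59.3 CPM in nicotine. Every vehicle library was below every air and every nicotine library. The log2 fold change of vehicle against air was -0.75 ± 0.18 (SE), with an unadjusted p of 0.000397 and an adjusted p of 0.168 by edgeR's quasi-likelihood test. That of nicotine against vehicle was 0.70 ± 0.18 (adjusted p = 0.383), and nicotine against air gave -0.05 ± 0.18 (adjusted p = 0.9998). The vehicle call depended on the fit: DESeq2 gave an adjusted p of 0.0288 and a fit of the 3-month libraries alone 0.00105, in which the spread is estimated from these 12 libraries rather than from all 23. That fit called 2721 of all genes for this comparison, where the fit of all libraries called 0, so its calls among the 10 genes are read against a wide background. With an offset for gene length, the log2 fold change of Fbn1, the longest of the 10 genes at 12128 exonic bases, was -0.61 with an adjusted p of 0.149.

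In the 3-week start, Fbn1 stood at 65.6, 72.8, 66.6 and 47.2 CPM in air libraries 1, 2, 4 and 5. It was at 33.5, 38.6 and 59.0 CPM in vehicle libraries 1, 2 and 4, and at 29.8, 48.9, 38.8 and 52.5 CPM in nicotine libraries 2, 3, 5 and 6. Here the groups overlapped, since air library 5 lay within the range of both exposed groups. The log2 fold change was -0.53 ± 0.19 for vehicle (adjusted p = 0.0619) and -0.57 ± 0.18 for nicotine (adjusted p = 0.143), and between nicotine and vehicle it was -0.04 ± 0.19 (adjusted p = 0.920). The vehicle value rested on 2 of the 3 libraries: without library 4 it was -0.84 (adjusted p = 0.00214), and with library 4 alone, whose variation was then taken from the other groups, it was -0.08. Fits that left out 1 library called up to 6969 of all genes for this comparison. The vehicle value of Fbn1 passed with DESeq2 (adjusted p = 0.0385) and with the length offset (-0.47, adjusted p = 0.0487). Without air libraries 1 and 5 it was -0.69 for vehicle (adjusted p = 0.258) and -0.74 for nicotine (adjusted p = 0.308). In the authors' deposited table, nicotine against air gave -0.59 for Fbn1 with an adjusted p of 0.161.

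**Figure D2:**
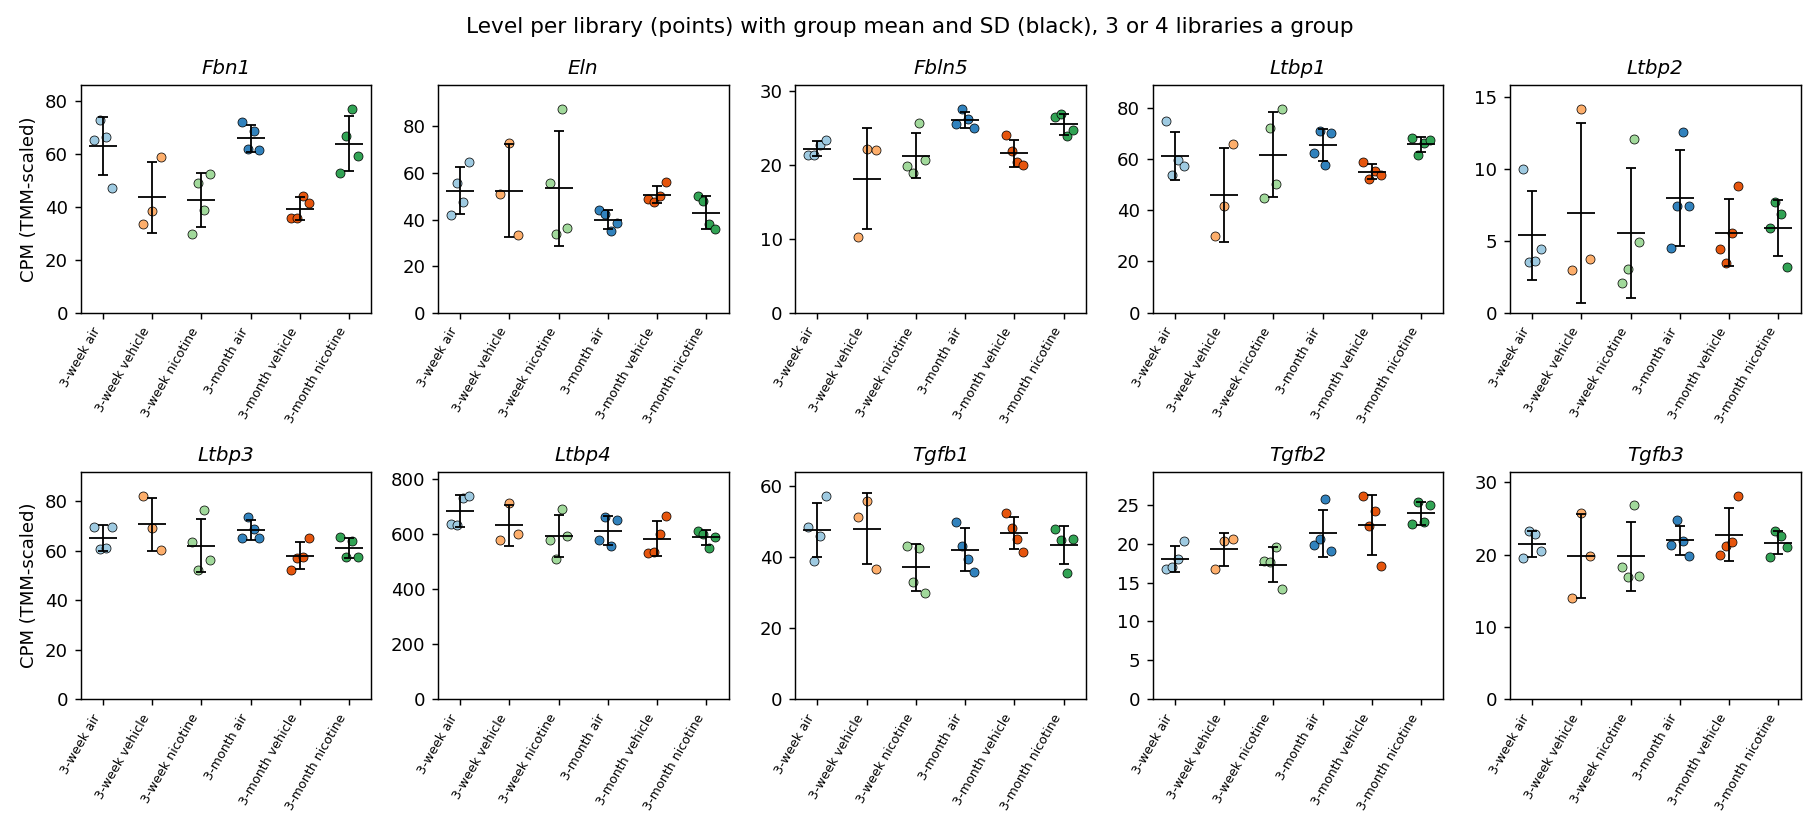
TMM-scaled CPM (vertical axis, from 0) of the 10 genes in each library by group (horizontal axis), with points for libraries and black bars for the group mean and SD. The 4 Fbn1 values of 3-month vehicle (35.7 to 44.3 CPM) sit below those of 3-month air (61.7 to 72.1 CPM) and 3-month nicotine (52.7 to 77.0 CPM).

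Between starting ages, Fbn1 rose in the nicotine groups, from 42.5 ± 10.3 CPM with the 3-week start to 63.9 ± 10.4 CPM with the 3-month start (SD, n = 4 each). The log2 fold change was 0.59 ± 0.18 and the adjusted p 0.0408. All 4 later libraries lay above all 4 earlier ones, with 52.7 CPM against 52.5 CPM at the boundary. In air the same difference was 0.07 ± 0.18 (adjusted p = 0.928) and in vehicle -0.15 ± 0.19 (adjusted p = 0.601). The test of the difference itself, the nicotine effect against air at 3 weeks minus that at 3 months, gave -0.52 ± 0.25 with an adjusted p of 0.490. The nicotine call was lost on leaving out 3-week library 2 (0.45, adjusted p = 0.153) or 5 (0.55, 0.112), or 3-month library 2 (0.57, 0.1055), 3 (0.49, 0.106) or 4 (0.62, 0.0738). It was also lost without a filter on low counts (0.59, 0.0687) and with the compared groups alone (0.59, 0.0585). A fit with a replicate block cannot estimate this difference, because each block lay within 1 starting age. Other measures separated the same groups. The sums of 8 blood and platelet markers were 1101 to 1411 CPM in 3-week nicotine and 434 to 565 CPM in 3-month nicotine, with none at 0. Sums of 5 mesothelial markers were 7.50 to 10.6 and 13.1 to 35.8 CPM, with up to 3 of 5 at 0 in a library. Those of 5 atrial cardiomyocyte markers were 84.0 to 120 and 134 to 182 CPM, also with up to 3 of 5 at 0. The share of counts in genes not annotated as protein-coding (the noncoding share) was 1.41 to 3.16% in 3-week nicotine and 1.27 to 1.37% in 3-month nicotine. Over the 23 libraries the log2 CPM of Fbn1 had a Pearson r of -0.52 with this share, -0.70 without the 2 libraries farthest from its median and -0.19 within groups. The part of these measures in the Fbn1 value was not tested.

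**Figure D3:**
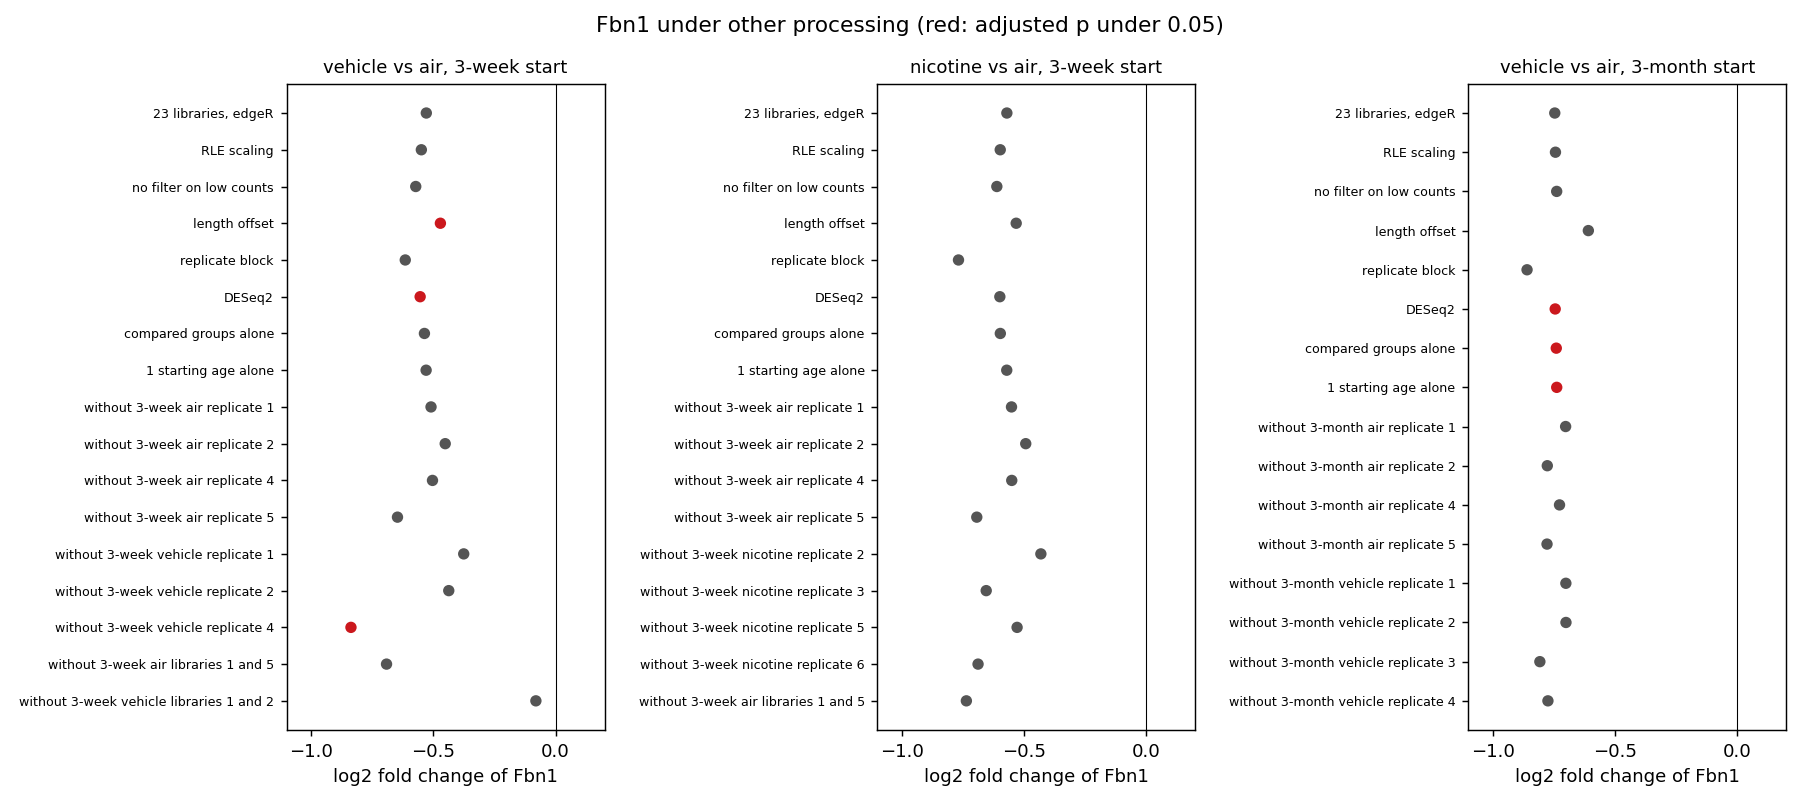
Log2 fold change of Fbn1 (horizontal axis) in 3 comparisons with air under each way of processing (vertical axis), with red points where the adjusted p was under 0.05. The comparisons are vehicle and nicotine at 3 weeks and vehicle in the 3-month start. Their points lie between -0.86 and -0.08 and most are grey, while nicotine in the 3-month start, not drawn, ran from -0.17 to 0.03.

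Eln ran against Fbn1. In the 3-month start it stood at 44.1, 42.2, 35.3 and 38.3 CPM in air, at 48.9, 47.5, 50.2 and 56.0 CPM in vehicle and at 50.3, 47.9, 38.1 and 35.7 CPM in nicotine. Every vehicle library was above every air library, while nicotine overlapped both. The log2 fold change of vehicle against air was 0.34 ± 0.24 (adjusted p = 0.487), and it passed in the fit of the 3-month libraries alone (0.35, adjusted p = 0.0288). Fbln5 was at 25.6, 27.6, 26.3 and 25.0 CPM in 3-month air and at 24.0, 21.9, 20.5 and 19.99 CPM in 3-month vehicle, again without overlap, with a log2 fold change of -0.27 ± 0.16 (adjusted p = 0.406). Fbln5 also passed in the fit of the 3-month libraries alone, and its lowest adjusted p over the alternatives was 0.0223. Nicotine of the same age stood at 26.5, 26.9, 24.0 and 24.8 CPM.

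With the 3-week start Eln was at 41.9, 55.6, 47.4 and 64.7 CPM in air, at 50.8, 73.1 and 33.4 CPM in vehicle and at 55.9, 33.6, 87.3 and 36.6 CPM in nicotine. The widest spread of the 23 libraries lay inside these exposed groups, and the group means of 52.4, 52.4 and 53.3 CPM hardly differed. Vehicle against air gave -0.00 ± 0.26 (adjusted p = 0.997) and nicotine against air 0.03 ± 0.24 (adjusted p = 0.976). Fbln5 was between 19.0 and 25.7 CPM in 10 of the 11 libraries of this start and at 10.2 CPM in vehicle library 1.

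Per exonic length, the ratio of Eln to Fbn1 was 0.768 to 1.02 in 3-month air, 1.70 to 2.05 in 3-month vehicle and 0.740 to 1.43 in 3-month nicotine. In the 3-week start it ran from 0.958 to 2.05 in air, from 0.847 to 2.84 in vehicle and from 1.03 to 3.37 in nicotine. Over the 23 libraries, which share their groups, the log2 CPM of Eln and Fbn1 had a Pearson r of -0.52 (Spearman -0.50), and -0.57 after each group's mean was taken away. Eln had -0.60 with Ltbp1, and Fbn1 and Ltbp1 had 0.64. These genes also moved with the length trend of the libraries: r was 0.81 for Fbn1, 0.78 for Ltbp1 (10691 exonic bases) and -0.76 for Eln (8098 exonic bases), and 0.76, 0.77 and -0.76 without the 2 libraries farthest from the median trend. Within groups these were 0.69, 0.84 and -0.79. These lengths count all annotated exonic bases of a gene and are not the length of a transcript. The part of the trend in these values was not tested beyond the length offset given above for Fbn1.

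**Figure D4:**
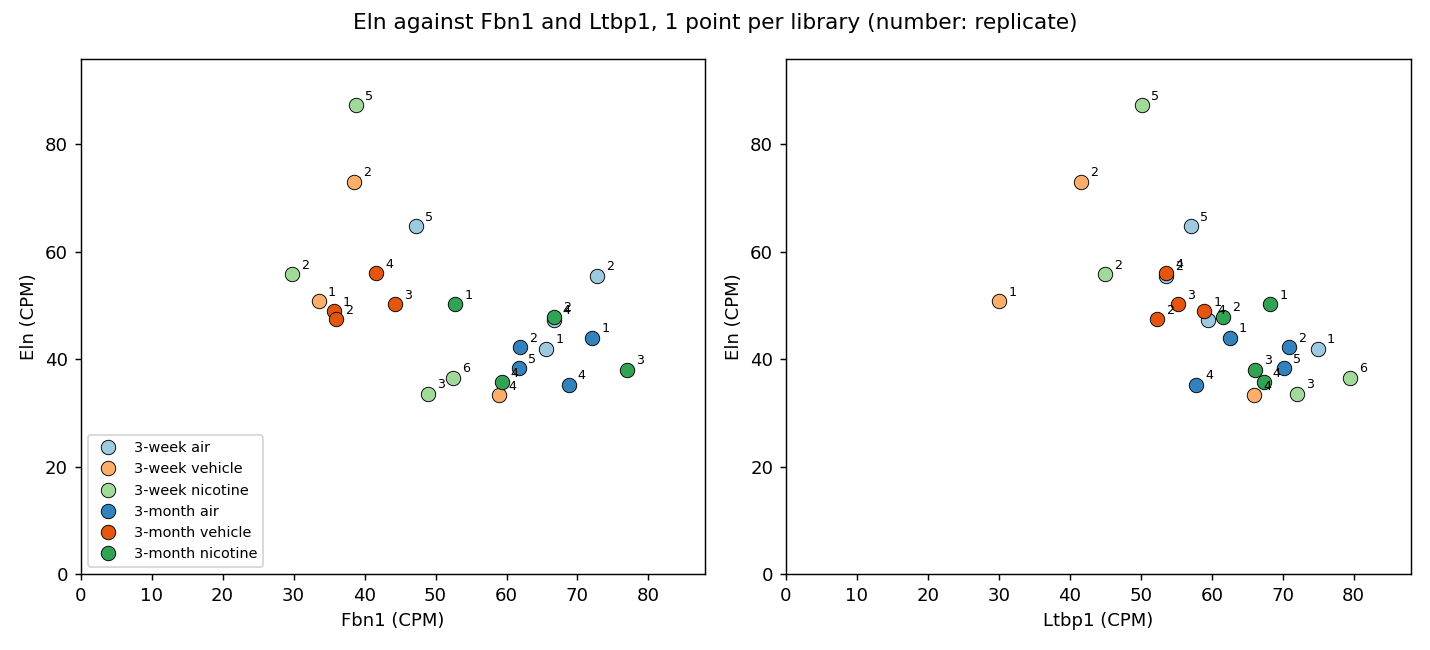
CPM of Eln (vertical axis) against CPM of Fbn1 (left) and of Ltbp1 (right), with 1 point per library coloured by group and numbered by replicate. Libraries high in Eln, such as 3-week nicotine 5 (87.3 CPM) and 3-week vehicle 2 (73.1 CPM), are on the low side in Fbn1 and Ltbp1.

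Of the binding proteins, Ltbp1 anchors the latent complex of TGF-beta to fibronectin and fibrillin. It was at 62.5, 70.9, 57.8 and 70.2 CPM in 3-month air, at 58.9, 52.2, 55.2 and 53.6 CPM in vehicle and at 68.2, 61.6, 66.1 and 67.3 CPM in nicotine. Vehicle lay wholly below nicotine and overlapped air, with log2 fold changes of 0.26 ± 0.18 for nicotine against vehicle (adjusted p = 0.512) and -0.25 ± 0.18 for vehicle against air (adjusted p = 0.506). Both passed in the fit of the 3-month libraries alone, which called 2405 and 2721 of all genes for these comparisons. The lowest adjusted p-values over the alternatives were 0.0278 and 0.0293. In the 3-week start it was at 74.9, 53.6, 59.5 and 57.1 CPM in air, at 30.1, 41.6 and 66.0 CPM in vehicle and at 45.0, 72.0, 50.2 and 79.4 CPM in nicotine. Vehicle libraries 1 and 2 were the lowest of all 23. Vehicle against air gave -0.42 ± 0.20 (adjusted p = 0.135), and -0.80 (adjusted p = 0.00163) without vehicle library 4. Fits that left out 1 library called up to 6969 of all genes here. With library 4 alone the Ltbp1 value was 0.13, in the other direction.

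Ltbp3, which also carries latent TGF-beta, ranged from 52.1 to 82.1 CPM over the libraries. In the 3-month start its mean was 68.3 ± 4.1 CPM in air, 58.0 ± 5.4 in vehicle and 61.1 ± 4.1 in nicotine (SD, n = 4 each), and vehicle against air gave -0.23 ± 0.11 with an unadjusted p of 0.0483 and an adjusted p of 0.349. Ltbp3 passed there in the fit of the 3-month libraries alone (adjusted p = 0.0454). Its vehicle effect at 3 weeks minus that at 3 months was 0.35 ± 0.16 (adjusted p = 0.407). Ltbp4, which binds latent TGF-beta-1 weakly and helps elastin assemble with fibulin-5, was the steadiest gene over the libraries, with 509 to 740 CPM. Its log2 fold change stayed between -0.21 and 0.01 in the 6 exposure comparisons, with the lowest for nicotine against air at 3 weeks (-0.21 ± 0.11, adjusted p = 0.423), where means were 594 ± 75 and 686 ± 59 CPM.

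Ltbp2, which binds fibulin-5 and microfibrils but not latent TGF-beta, was the scarcest and the most uneven member, with 32 to 204 counts per library. It was at 9.99, 3.51, 3.61 and 4.43 CPM in 3-week air, at 2.94, 14.2 and 3.71 CPM in vehicle and at 2.09, 3.04, 12.1 and 4.89 CPM in nicotine. In the 3-month start it lay between 3.19 and 12.6 CPM, with the highest in air library 4. One library in each 3-week group was thus more than 2-fold above the rest of its group, and no comparison passed. The summed CPM of 5 genes fixed as markers of valve and cartilage-like cells (Cilp, Comp, Acan, Chad and Fmod) was high in the same 3 libraries: 25.4 in air 1 against 6.94 to 9.23 in the other air libraries, 48.1 in vehicle 2 against 4.92 and 6.10, and 41.5 in nicotine 5 against 6.66 to 8.72. It was 28.2 in 3-month air library 4, the highest of the 3-month libraries. At most 1 of these 5 markers was at 0 in any library. Atrial cardiomyocyte marker sums were also highest of their group in 3-week air 1 (370 CPM), 3-week vehicle 2 (508) and 3-month air 4 (286). In 3-week nicotine 5 that sum was 119 CPM, below nicotine 3 (120). Fibroblast sums were highest of their group in 3-week vehicle 2 (3100 CPM) and nicotine 5 (2939), but not in air 1 (2478). The part of these measures in the Ltbp2 values was not tested.

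The ligands differed among themselves. Tgfb1 was at 48.6, 38.8, 46.0 and 57.2 CPM in 3-week air, at 51.3, 55.8 and 36.7 CPM in vehicle and at 43.1, 32.9, 42.5 and 30.0 CPM in nicotine. The nicotine mean, 37.1 ± 6.7 CPM, was the lowest of the 6 groups, and its libraries overlapped both others. The log2 fold change was -0.36 ± 0.15 against air (adjusted p = 0.314) and -0.37 ± 0.16 against vehicle (adjusted p = 0.229), and the latter passed without vehicle library 4 (-0.51, adjusted p = 0.0222) and came to -0.01 with that library alone. Fits that left out 1 library called up to 4793 of all genes for nicotine against vehicle. Without air libraries 1 and 5, nicotine against air was -0.21 (adjusted p = 0.9999). In the 3-month start Tgfb1 lay between 35.5 and 52.4 CPM, with means of 42.1 ± 6.0 in air, 46.8 ± 4.6 in vehicle and 43.4 ± 5.4 in nicotine (SD, n = 4 each).

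Tgfb2 was higher after the later start under every exposure, and rose in the nicotine groups. It was at 17.8, 17.6, 19.6 and 14.2 CPM in 3-week nicotine and at 22.5, 25.4, 22.8 and 25.0 CPM in 3-month nicotine, and these groups did not overlap. The log2 fold change was 0.47 ± 0.13 (adjusted p = 0.0280). In air, with 16.7, 17.1, 17.98 and 20.4 CPM at 3 weeks and 19.8, 20.6, 25.8 and 19.0 CPM at 3 months, it was 0.24 ± 0.13 (adjusted p = 0.611), and in vehicle 0.22 ± 0.14 (adjusted p = 0.270). The test of the nicotine effect between ages gave -0.22 ± 0.18 (adjusted p = 0.772), so a difference of the age effect between nicotine and air was not detected. The value was 0.38 to 0.53 on leaving out 1 library, close to that with all. The call was lost without a filter on low counts (0.46, adjusted p = 0.0586) and with the length offset (0.42, 0.0518). It was also lost on leaving out 3-week library 2 (0.0607) or 6 (0.0640), or 3-month library 2 (0.0897) or 4 (0.0803). The blood, mesothelial and atrial markers and the noncoding share given beside Fbn1 separate these groups here too, and their part in the Tgfb2 value was not tested. Tgfb3 stayed between 13.96 and 28.1 CPM, and its 6 group means ran from 19.8 to 22.7 CPM. No comparison reached an unadjusted p under 0.05 for Tgfb3.

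Promoter windows from RefSeq on the GRCm38.p6 build were found for 8 of the 10 genes. Those of Eln and Tgfb3 were not among them. The 250 bases upstream of the start of Tgfb1 (chr7:25686752-25687001, plus strand) and Tgfb2 (chr1:186705990-186706239, minus strand) are shown because Tgfb2 was the ligand that passed a test, between starting ages in nicotine, and Tgfb1 the most abundant ligand, which passed none. The 2 ligands were not tested against each other. The window of Tgfb1 lies outside annotated exons, and 167 bases of that of Tgfb2 lie in exons of a predicted gene model. Capitals mark matches on either strand to the GC box GGGCGG, which Sp1 family factors bind. They also mark matches to the TATA box, searched as TATAAA. Capitals mark the core of a SMAD box as well, searched as CAGAC.
Tgfb1: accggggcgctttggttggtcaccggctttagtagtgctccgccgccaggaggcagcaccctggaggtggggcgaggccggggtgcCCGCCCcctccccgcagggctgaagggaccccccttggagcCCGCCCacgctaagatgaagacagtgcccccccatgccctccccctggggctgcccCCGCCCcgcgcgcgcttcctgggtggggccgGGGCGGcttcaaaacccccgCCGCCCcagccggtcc
Tgfb2: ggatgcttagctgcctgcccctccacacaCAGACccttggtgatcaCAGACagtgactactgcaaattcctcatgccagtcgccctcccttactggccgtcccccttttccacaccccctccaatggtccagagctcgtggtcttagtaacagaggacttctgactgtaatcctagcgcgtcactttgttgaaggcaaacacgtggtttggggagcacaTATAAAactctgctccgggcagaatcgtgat

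The Tgfb1 window was 75.2% G and C and held 5 matches to GGGCGG, none to TATAAA and none to CAGAC. The Tgfb2 window was 53.6% G and C and held 1 TATAAA, 2 CAGAC and no GGGCGG. Of 32851 upstream windows of the same length, 32.7% held GGGCGG on either strand, 12.4% TATAAA and 42.2% CAGAC. The AP-1 motif TGANTCA was also searched, and was in 6.75% of them and in none of the windows of the 8 genes. The window of Fbn1 held 1 GGGCGG and no match to the other 3, and all its 250 bases lie in annotated exons of Fbn1 and a predicted gene model. One window of Ltbp4, the most abundant member, held 3 GGGCGG, and 2 others, which are shifted by 15 bases and share most of their sequence, held 5 and 7, and those of Ltbp1 and Ltbp3 held none. A match describes the letters of a window and not a binding site.

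**Figure D5:**
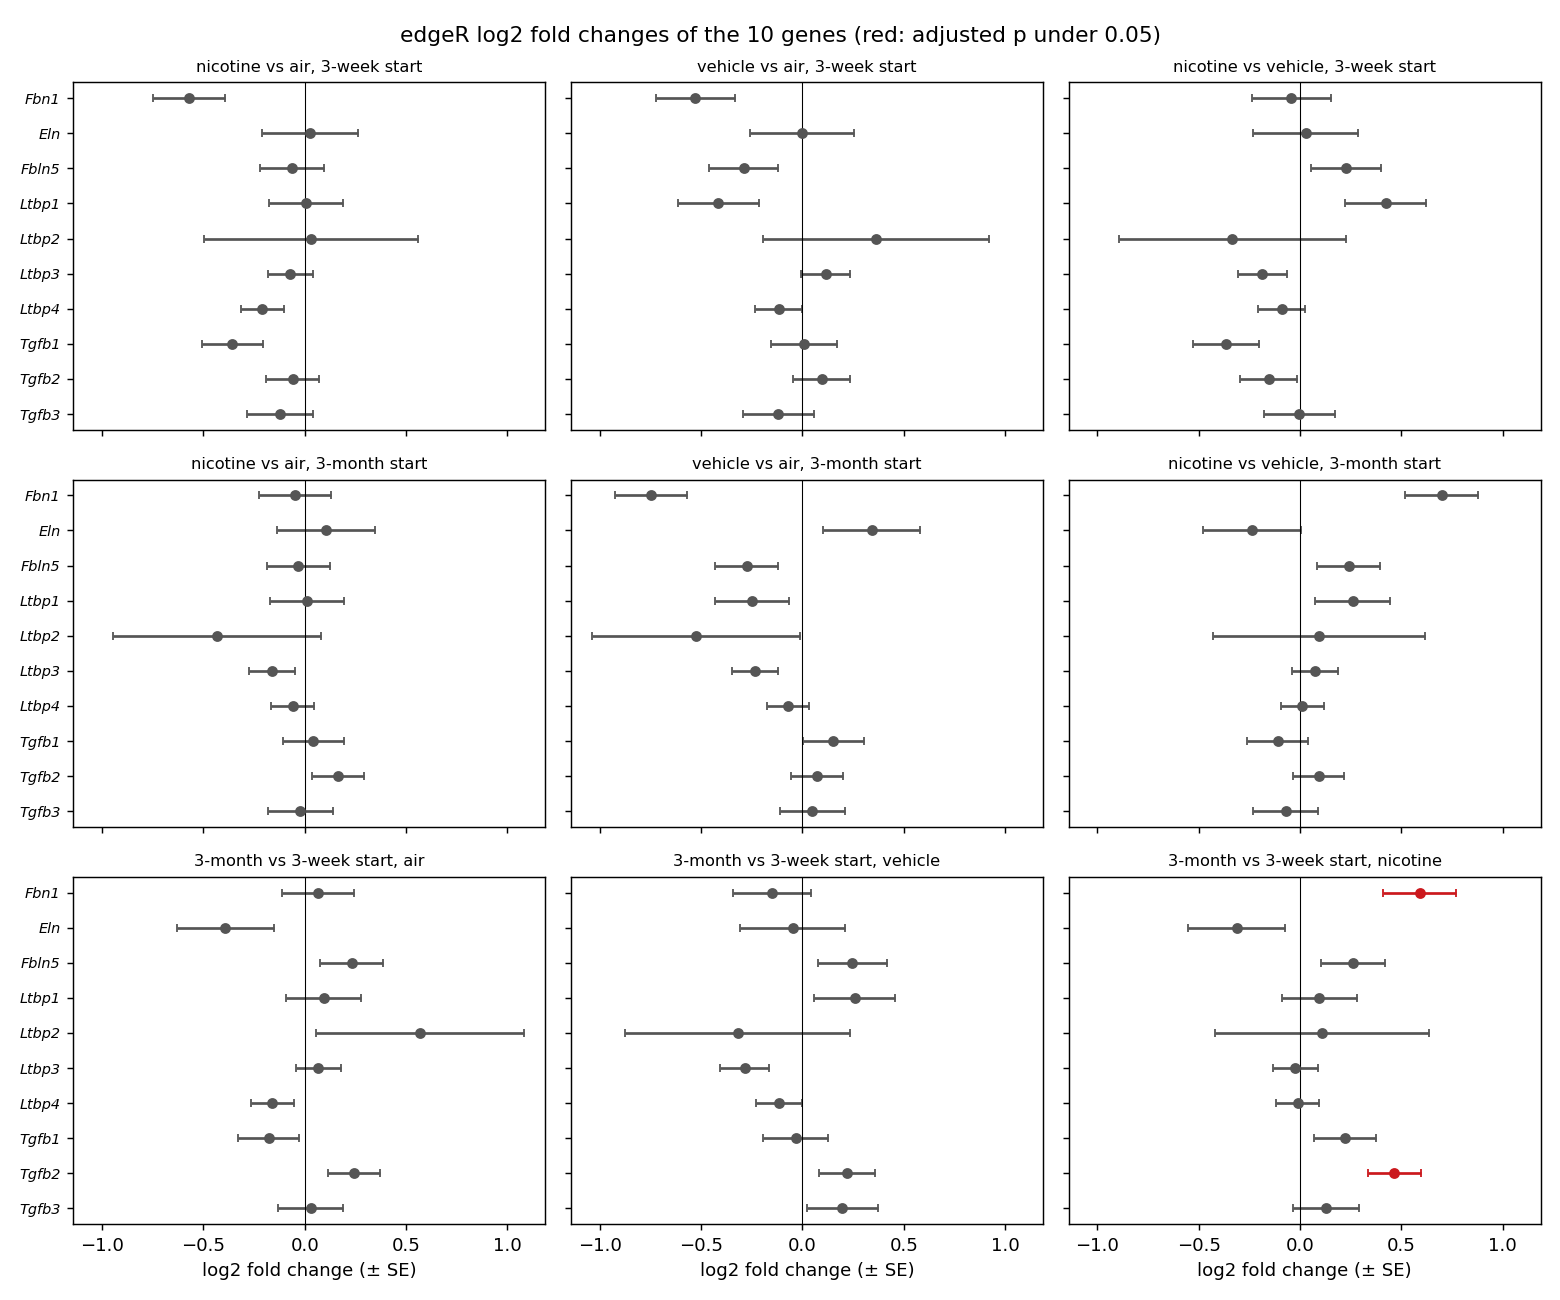
Log2 fold change (horizontal axis, point) and SE (bar) of the 10 genes (vertical axis) in 9 comparisons of groups, from edgeR over 23 libraries. Points are red where the adjusted p was under 0.05, which holds for Fbn1 (0.59) and Tgfb2 (0.47) between starting ages in the nicotine groups.

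Counted over the comparisons, edgeR called 0 of the 10 genes for vehicle against air at 3 weeks, where it called 16.2% of all genes tested, and 1 of the 10 (Fbn1) had an unadjusted p under 0.05, against 37.3% of all genes. DESeq2 called 1, also Fbn1, among 3386 of all genes. For nicotine against air at 3 weeks it called 0 (0.813% of all genes), with 2 at an unadjusted p under 0.05 (Fbn1 and Tgfb1, against 12.8%) and 0 by DESeq2. Nicotine against vehicle at 3 weeks gave 0 (0% of all genes), with 2 unadjusted (Ltbp1 and Tgfb1, against 19.3%) and 0 by DESeq2. In the 3-month start, nicotine against air gave 0 (0% of all genes), 0 unadjusted (against 2.63%) and 0 by DESeq2. Vehicle against air gave 0 (0%), 2 unadjusted (Fbn1 and Ltbp3, against 14.2%) and 1 by DESeq2 (Fbn1, among 82 of all genes), and nicotine against vehicle 0 (0%), 1 unadjusted (Fbn1, against 12.2%) and 0 by DESeq2.

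Groups without overlap were found for 0 of 10 genes in the 3 exposure comparisons of the 3-week start, against 5.19% of all genes for nicotine against air, 9.25% for vehicle against air and 4.88% for nicotine against vehicle. They were 0 of 10 for nicotine against air in the 3-month start (3.7%). For vehicle against air in the 3-month start they were 3 of 10 (Fbn1, Fbln5 and Eln) against 20.1% of all genes, and for nicotine against vehicle 2 of 10 (Fbn1 and Ltbp1) against 18.8%. Between starting ages, air had 1 of 10 without overlap (Fbln5) against 5.01%. edgeR called 0 of 10 in air (0.00645% of all genes), with 0 unadjusted (9.08%) and 0 by DESeq2. In vehicle it called 0 of 10 (12.5%), with 1 unadjusted (Ltbp3, against 32.9%) and 0 by DESeq2, and 0 of 10 were without overlap (17.7%). In nicotine it called 2 of 10, both higher (5.03% of all genes were called higher and 9.52% in either direction), and DESeq2 called 2, among 1956 of all genes. The same 2 had an unadjusted p under 0.05 (28% of all genes) and did not overlap (19%). The difference of the nicotine effect between starting ages was called for 0 of 10 (0.135% of all genes, 1 unadjusted against 10.2%, 0 by DESeq2), as was that of the vehicle effect (0%, 1 unadjusted against 12%, 0 by DESeq2). The median log2 fold change of the 10 genes lay between -0.15 (vehicle against air, 3-month start) and 0.12 (nicotine, 3-month against 3-week start), where the medians of all genes tested were 0.01 and -0.02.

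Of 64 other genes of the pathway, in 6 lists, edgeR called 15 for vehicle against air at 3 weeks (16.2% of all genes tested), 3 for nicotine against air at 3 weeks (0.813%), and 10 each between starting ages in vehicle (12.5%) and in nicotine (9.52%). It called 0 in the 3 exposure comparisons of the 3-month start, with 1, 11 and 9 at an unadjusted p under 0.05 for nicotine over air, vehicle over air and nicotine over vehicle (2.63, 14.2 and 12.2% of all genes), and 0, 1 and 0 by DESeq2. These lists were chosen with earlier results known, and their counts are a description. Among 15 genes of microfibril and elastic fibre assembly, 1 rose and 2 fell with vehicle at 3 weeks, where 16.2% of all genes were called. Adamts10, a protease that binds fibrillin-1, rose by 1.17 ± 0.34 on the log2 scale (adjusted p = 0.0322), while Emilin2 (-0.43 ± 0.12, 0.0272) and Fbln2 (-0.49 ± 0.14, 0.0326), both matrix glycoproteins of elastic fibres, fell. The rise of Adamts10 turned to -0.32 with vehicle library 4 alone, so it rested on libraries 1 and 2. With the later start Efemp1, the gene of fibulin-3, rose in vehicle (1.07 ± 0.22, 0.00759) and nicotine (0.68 ± 0.20, 0.0373), Efemp2, the gene of fibulin-4, fell in vehicle (-0.41 ± 0.13, 0.0422), and Loxl1, which cross-links elastin, rose in nicotine (0.54 ± 0.15, 0.0246). The medians of this list for these 3 comparisons were -0.05, -0.06 and 0.01, near the 0.02, -0.02 and -0.02 of all genes tested.

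The genes that process or release latent TGF-beta, 14 in all, included Thbs1, which had the largest log2 fold changes among the called genes of the 6 lists. It stood at 4.24 to 7.04 CPM in 3-week nicotine, at 1.98 to 20.4 CPM in 3-week vehicle and at 349 to 1023 CPM in the 3-month libraries. It fell with nicotine (-6.01 ± 1.10, adjusted p = 0.0202) and vehicle (-5.30 ± 1.20, 0.0187) at 3 weeks and rose with the later start in vehicle (5.91 ± 1.23, 0.00838) and nicotine (7.12 ± 1.15, 0.00110). Lrrc32, which holds latent TGF-beta on the cell surface, fell with nicotine (-1.58 ± 0.37, 0.0495) and vehicle (-1.61 ± 0.41, 0.0241) and rose with the later start in both (2.06 ± 0.42 and 1.97 ± 0.38). Furin, the propeptide protease, fell with vehicle at 3 weeks (-0.67 ± 0.16, 0.0224), as did the integrin gene Itgb1 (-0.69 ± 0.21, 0.0338) and 1 further gene. Bmp1, which cleaves matrix proteins, fell with the later start in vehicle (-0.84 ± 0.24, 0.0300) and had risen with vehicle at 3 weeks (0.75 ± 0.24, 0.0422). With vehicle library 4 alone both values turned, to 0.05001 and -0.15. Mmp14, a membrane protease, rose in nicotine with the later start (0.45 ± 0.14, 0.0444). It passed in 3 of 14 alternatives, a count that takes in the replicate block, and not with the length offset (0.0560). Lrrc32 with nicotine at 3 weeks did not pass with that offset either (-1.57, 0.0577). Without air libraries 1 and 5, none of the 3 calls for nicotine and none of the 15 for vehicle among the 64 genes passed, and Thbs1 came to -0.78 for nicotine and -0.07 for vehicle (adjusted p = 0.9999 and 0.956). Other values held their size in that fit while losing the call, such as those for vehicle of Col1a2 (-0.43), Ski (-0.35), Fbln2 (-0.42) and Emilin2 (-0.37). Between starting ages in air, where edgeR called 0 of the 64 with all libraries (8 unadjusted, 0 by DESeq2), leaving out the same 2 libraries gave 2 higher among these 14, 1 higher among the inhibitors, and 3 higher and 1 lower among the response genes. That fit called 849 of all genes in air, against 1 with all libraries. With vehicle library 4 alone, none of the 15 calls for vehicle and none of the 10 between starting ages in vehicle passed, in an arm of 1 library. Some values were as large there, with -6.07 for Thbs1, -3.60 for Cdkn1a and -1.71 for Lrrc32 against air, and 6.70 for Thbs1 and 3.78 for Cdkn1a between starting ages.

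Receptors and co-receptors of TGF-beta (Tgfbr1, Tgfbr2, Tgfbr3, Eng and Acvrl1) were called in 0 of 5 cases in every comparison by edgeR, with at most 1 at an unadjusted p under 0.05 and 1 lower by DESeq2 for vehicle against air at 3 weeks. Of 6 SMAD transducers, Smad2 fell with vehicle at 3 weeks (-0.44 ± 0.15, adjusted p = 0.0496). Of 10 inhibitors of the pathway, Smad6 (-0.70 ± 0.22, 0.0379) and Ski (-0.36 ± 0.12, 0.0416) fell there. With the later start Skil, a SMAD co-repressor, rose in vehicle (1.49 ± 0.30, 0.00736) and nicotine (1.42 ± 0.27, 0.00318), as did Smad6 in vehicle (0.84 ± 0.22, 0.0193) and Pmepa1 in nicotine (0.42 ± 0.13, 0.0455), which did not pass with the length offset (0.41, 0.0610).

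Among genes that respond to TGF-beta, Cdkn1a (-3.10 ± 0.77, adjusted p = 0.0236) and the collagen gene Col1a2 (-0.42 ± 0.13, 0.0393, and 0.0902 with the length offset) fell with vehicle at 3 weeks, and Cdkn1a fell with nicotine (-3.44 ± 0.71, 0.0319). Cdkn1a, a cell cycle inhibitor, and Ccn2, a matrix protein gene, rose with the later start in vehicle (3.28 ± 0.78, 0.0145, and 1.57 ± 0.45, 0.0286) and in nicotine (3.62 ± 0.71, 0.00389, and 1.61 ± 0.40, 0.0169).

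Markers of the cells that make these proteins were compared in the 3-month start. Sums of 8 fibroblast markers overlapped between all groups, with 2454 to 2774 CPM in air, 2543 to 2783 in vehicle and 2378 to 2666 in nicotine. Sums of 10 smooth muscle and pericyte markers were 1374 to 1596, 1310 to 1429 and 1486 to 1543 CPM in the same order, so that vehicle lay wholly below nicotine and overlapped air, as Ltbp1 did. Sums of 8 endothelial markers were 1389 to 1704, 1856 to 2098 and 1623 to 1779 CPM, with vehicle wholly above both others. None of these markers was at 0 in any of these libraries. Blood and platelet sums were 317 to 736, 697 to 950 and 434 to 565 CPM, with vehicle wholly above nicotine. In the 3-week start these sums were 1101 to 1411 CPM in nicotine, 519 to 944 CPM in air and 506 to 2379 CPM in vehicle. Vehicle library 1 of that start had the highest blood and platelet sum of the 23 libraries (2379 CPM). It also had their lowest smooth muscle and pericyte sum (926 CPM) and their lowest Fbln5 (10.2 CPM) and Ltbp1 (30.1 CPM). The noncoding share in the 3-month start was 1.55 to 1.72% in vehicle, above both air (1.30 to 1.52%) and nicotine (1.27 to 1.37%). The part of these measures in the Fbn1, Eln, Fbln5, Ltbp1 and Tgfb1 values was not tested.

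The 3 genes whose log2 CPM ran closest to each member over the 23 libraries were named by Pearson r, as a description of libraries that share groups, depth and the length trend. For Fbn1 they were Col15a1 (0.90), a basement membrane collagen, Col4a2 (0.88), a chain of collagen IV, and Adam17 (0.85). For Eln they were Igsf8 (0.86), Dnah17 (0.84) and Eng (0.82), and for Fbln5 Kctd10 (0.91), Lhfp (0.90) and App (0.90). For Fbln5 Spearman's rho was lower, between 0.62 and 0.70. Ltbp1 had the closest, Alkbh5 (0.97), Cds2 (0.97) and Rnf6 (0.97). Ltbp2 ran with the matrix genes Cilp (0.89), Comp (0.88) and Dkk3 (0.87). Ltbp3 ran with Phldb1 (0.84), Speg (0.79) and Ap3d1 (0.79), and Ltbp4 with Tmem119 (0.79), Pkd1 (0.74) and Tead4 (0.69). The ligands had Adam15 (0.93), Arpc1b (0.91) and Clic1 (0.87) for Tgfb1, Ik (0.82), Prpf38a (0.76) and Fkbp1a (0.75) for Tgfb2, and Myo1d (0.77), Klrg2 (0.74) and Sod3 (0.73) for Tgfb3.

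Predicted gene models and unnamed clones share exonic bases with 5 of the 10 members, and the strand setting of the counting is not given in the sources used here. The largest share was 20.1% of Fbn1 with a predicted gene model, which had 0 to 4 counts per library. Reads from these bases could be assigned to either gene or to neither.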

How the data were processed

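Left ventricle RNA-seq was read from a table in which the authors deposited raw counts as whole numbers, 1 row a gene and 1 column a library (23 libraries, 6 groups). The submitters' processing notes name Trimmomatic 0.36, STAR 2.5.2b, featureCounts (Subread 1.5.2) and DESeq2. Build, annotation and strand setting were not given in the sources used here. For nicotine and air the authors also deposited log2 fold changes, adjusted p-values and a signal per library (counts over a size factor). Only their fold changes and p-values are quoted. All columns of counts could be matched to a library by name. A deposited gene ontology table, which names no comparison, was left out.

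In R 4.3.3, edgeR 4.0.16 fitted all 23 libraries at once (TMM, filterByExpr with a minimum count of 10, robust quasi-likelihood test, 17 residual degrees of freedom). Benjamini-Hochberg adjustment covered all 15500 genes that passed the filter, and a gene was called at an adjusted p under 0.05. Adjusted p-values are edgeR's unless another tool is named. The code was tested on simulated data. Log2 CPM had a prior count of 1. GENCODE vM21 gave exonic lengths and symbols, joined on gene ID (49056 of 49315 genes had a symbol). Genes named are the 10 members, up to 4 called genes per list and comparison by smallest p, and the 3 genes closest to each member. Bmp1 is also given in 1 comparison where it ranked lower, a choice made after its values were seen. Alternatives were DESeq2 1.42.0, RLE scaling, no filter on low counts, an offset for gene length (spline with 5 degrees of freedom), fits of fewer groups, a replicate block and leaving out libraries. Members and lists were chosen with earlier results of these data known. Within groups, no library was a copy of another. Some genes are not reported here.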

Additional observations from a re-analysis of the deposited data

Results flagged for a closer look

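In 50 sets of 4 libraries (10 genes in the 5 groups of 4), 2 had a library whose distance from the nearest other exceeded Dixon's 95% critical share of the range. Chance alone flags about 1 in 20 sets. Ltbp2 stood at 9.99 CPM in 3-week air replicate 1, against 3.51 to 4.43 CPM in the other 3 libraries of the group. Tgfb3 stood at 26.8 CPM in 3-week nicotine replicate 5, against 16.9 to 18.3 CPM in the other 3.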

How the results depend on the processing

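Of the 10 genes, vehicle against air at 3 weeks had 0 past the threshold, and 1 (Fbn1) with the length offset and 1 with DESeq2 (among 2419 and 3386 of all genes). Vehicle against air in the 3-month start had 0, and 1 with DESeq2, 4 with the compared groups alone and 5 with 1 starting age alone (among 82, 2635 and 2721 of all genes). Nicotine against vehicle there had 0, and 2 with the compared groups alone and 2 with 1 starting age alone (among 2247 and 2405 of all genes). Nicotine between starting ages had 2, and 0 without a filter on low counts, 1 with the length offset and 1 with the compared groups alone (among 915, 1456 and 1617 of all genes). The cause was not tested, except that fits of fewer groups estimate the spread from fewer samples. Leaving out 1 library in turn gave 0 to 3 genes for vehicle against air and 0 to 2 for nicotine against vehicle at 3 weeks, and 0 to 2 between starting ages in vehicle and in nicotine. The highest count in the first 3 came without 3-week vehicle library 4. Over the same fits, in the same order, 0 to 6969, 0 to 4793, 1 to 6306 and 628 to 1780 of all genes were called. In the other 7 comparisons leaving out 1 library gave 0 of the 10 genes each time. RLE scaling changed no call of a member. No called member changed direction under any alternative.

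Same-numbered libraries of different groups correlated in their deviations from group means by -0.36 to 0.26 in 6 pairs at the 3-week start and by -0.30 to 0.05 in 10 pairs at the 3-month start, so the numbers were not taken to pair the samples. With a replicate block, which left 8 residual degrees of freedom, 0 of the 10 genes passed between starting ages in nicotine (2 without it), and Efemp2 between starting ages in vehicle came to 0.058, the other direction.

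Without 3-week vehicle libraries 1 and 2, the vehicle effect was -0.15 for Bmp1 and -0.32 for Adamts10, and Bmp1 between starting ages in vehicle came to 0.05001, all 3 opposite to the value with all libraries. Counts over all genes moved more. With all libraries edgeR called 126 genes for nicotine and 2509 for vehicle against air at 3 weeks, 1933 between starting ages in vehicle and 1476 in nicotine. Leaving out 1 library gave 1 to 377, 0 to 6969, 1 to 6306 and 628 to 1780, the compared groups alone 1, 0, 347 and 1617, and no filter 76, 1279, 1132 and 915. The replicate block gave 0 for nicotine and 0 for vehicle against air at 3 weeks. DESeq2 called 471 for the first and 3386, 2491 and 1956 for the others. Without 3-week air libraries 1 and 5, 7 genes passed for nicotine and 0 for vehicle, and 849 between starting ages in air (1 with all). For vehicle against air and nicotine against vehicle in the 3-month start, 0 with all libraries became 2635 and 2247 with the compared groups alone. Nicotine against vehicle at 3 weeks went from 0 to 255 with DESeq2 and to as many as 4793 on leaving out 1 library. Depth limits Ltbp2 most, with as few as 32 counts.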
